A study of Mus musculus with 2 samples.

Results

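T cell receptor V segments are the germline gene pieces that encode most of the variable part of the receptor's alpha chain (Trav genes) and beta chain (Trbv genes). They were taken here as every gene row whose symbol starts with Trav or Trbv, which gave 56 rows (18 Trbv and 38 Trav) of the 15416 genes in the table. Their use was described in the 2118 cells of the 6 CD8 T cell subclusters (numbers 1, 5, 7, 8, 10 and 14 of the authors' clustering at resolution 0.8) that carry a mouse hashtag, of 5976 cells in all. The 1315 hashtagged cells of the CD45[Siglech] cluster, plasmacytoid dendritic cells by their markers, served as the background.

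The series holds 1 single-cell library of CD45+JAML+ cells sorted from mouse tumours. Its chemistry is given as 10x Genomics 5' version 2, which reads the start of each transcript, where the V segment lies. The counts do not show such a read: V UMIs were few beside those of the constant segments downstream (values below). The reason was not tested. Hashtag antibodies named B16F10-isotype-CTRLI, B16F10-isotype-CTRLII and B16F10-isotype-CTRLIII split it into 3 animals, called mouse 1, mouse 2 and mouse 3 below. B16F10 is a mouse melanoma line, and by these names all 3 mice received an isotype control antibody, so the series has no treated group. Age, sex and strain are not given in the sources used here, and the sorting text calls the cells TREG while the sample label calls them T cells.

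A T cell builds each receptor chain by joining 1 V segment to downstream segments, so that its descendants carry the same V segment and a clone that has divided shows up as many cells with the same alpha and beta V rows. The join itself, the CDR3 loop that meets the peptide, is what tells clones apart; it was not read here, so that a shared V row does not by itself show a shared clone. Most of the loop lies beyond the V segment, and the segment supplies its first few residues.

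By the annotation (GENCODE M21, build GRCm38, the same assembly as the authors' mm10), all 56 symbols matched. The Trbv rows lay on chromosome 6 between bases 40891229 and 41558452, and the Trav rows on chromosome 14 between 52567198 and 53845827. The ends of 7 segments that led a mouse or a pair of segments are shown because they are the rows the results turn on. Each line is the last 90 bases of the coding exons, 5′ to 3′ on the plus strand, and the capitals start at the last in-frame cysteine codon, where the CDR3 begins. The positions of the genes are chr6:41047340-41047995 for Trbv2, chr6:41048290-41048828 for Trbv3, chr6:41163062-41163556 for Trbv17, chr6:41178375-41179048 for Trbv19, chr14:53122114-53122610 for Trav10n, chr14:53709902-53710419 for Trav6-7-dv9 and chr14:53370077-53370575 for Trav14n-3.
Trbv2: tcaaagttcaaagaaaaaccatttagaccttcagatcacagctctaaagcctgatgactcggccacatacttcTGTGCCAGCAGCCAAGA
Trbv3: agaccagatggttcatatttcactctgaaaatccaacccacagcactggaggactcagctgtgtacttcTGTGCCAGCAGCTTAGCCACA
Trbv17: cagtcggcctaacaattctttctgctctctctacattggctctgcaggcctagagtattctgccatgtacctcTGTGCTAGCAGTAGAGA
Trbv19: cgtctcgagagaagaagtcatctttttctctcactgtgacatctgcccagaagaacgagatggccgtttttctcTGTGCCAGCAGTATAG
Trav10n: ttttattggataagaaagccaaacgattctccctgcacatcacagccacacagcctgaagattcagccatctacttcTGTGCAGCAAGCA
Trav6-7-dv9: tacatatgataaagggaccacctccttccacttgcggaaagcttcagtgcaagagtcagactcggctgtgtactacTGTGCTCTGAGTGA
Trav14n-3: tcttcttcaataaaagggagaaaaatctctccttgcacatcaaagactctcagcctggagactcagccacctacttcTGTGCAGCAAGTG

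All 18 Trbv rows had every 90-base window of their coding sequence unique among the annotated V segments. The Trav locus holds near-identical copies: 8 of 38 Trav rows had all windows unique, and in 7 rows more windows were shared than unique. Trav9n-1 and Trav8-2, annotated as pseudogenes without a coding sequence, had no windows to assess. Trav10n, not among those 7 rows, is an example of a row with near-identical copies. The last 150 coding bases are shown for it and its 2 copies, Trav10d (chr14:52810934-52811496) and Trav10 (chr14:53505727-53506286), all on the plus strand. Capitals mark the letters that differ from Trav10n.
Trav10n: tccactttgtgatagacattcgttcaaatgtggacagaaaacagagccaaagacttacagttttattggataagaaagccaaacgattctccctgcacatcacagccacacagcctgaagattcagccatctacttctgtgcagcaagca
Trav10d: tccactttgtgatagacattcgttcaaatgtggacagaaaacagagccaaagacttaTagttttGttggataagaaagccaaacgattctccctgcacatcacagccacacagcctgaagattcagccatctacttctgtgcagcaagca
Trav10: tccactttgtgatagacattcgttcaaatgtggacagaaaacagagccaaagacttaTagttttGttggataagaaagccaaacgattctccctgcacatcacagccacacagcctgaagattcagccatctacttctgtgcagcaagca

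Trav10d and Trav10 each differed from Trav10n at 2 of these 150 positions, and 59.1% of the windows of Trav10n were unique. Whether reads that match several copies were dropped is not given in the sources used here, so levels of Trav rows are uncertain as between copies. Trav14n-3 (58.1% of windows unique), Trav6-7-dv9 (69.1%) and Trav14d-3-dv8 (89.3%) share this limit.

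The labelled cell type was checked against marker lists, and CD8 T cell markers had the highest sum in the CD8 subclusters. UMIs (single counted transcripts) of Cd3e, a receptor subunit, were found in 98.2% of the cells of the CD8 subclusters, Cd8a in 92.2% and Cd4 in 4.11%, and the 8 CD8 T cell markers summed to 8511 CPM (UMIs of a gene scaled by the total UMIs of the class, as counts per 1e6), against 374 CPM in CD45[Siglech] cells. The 7 plasmacytoid markers summed to 282 CPM in the CD8 subclusters and 14619 CPM in CD45[Siglech] cells. Trdc, the constant gene of the delta chain used by T cells that carry no alpha chain, had UMIs in 2.12% of the CD8 cells. The 5 gamma-delta T cell markers summed to 76.0 CPM in the CD8 subclusters and 1.43 CPM in CD45[Siglech] cells. The 6 natural killer or ILC1 markers summed to 195 and 4.95 CPM, with 359 CPM in subcluster 14. The 5 macrophage markers summed to 137 and 527 CPM. At least 2 UMIs of Cd79a, Lyz2, C1qa or Siglech, genes of other cell types, were found in 705 CD8 cells. Of the recombination genes, Rag1 had no UMI and Dntt, which adds random bases at the joins, had 0.449 ± 0.349 CPM (SD, n = 3 mice) in the CD8 subclusters, against 0.395 ± 0.141 CPM for Rag1 and 136 ± 44.0 CPM for Dntt in CD45[Siglech] cells.

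V segments were read in a minority of T cells. At least 1 Trbv UMI was found in 34.0%, 46.9% and 27.5% of the CD8 cells of mice 1, 2 and 3, against 0.477%, 0.930% and 1.06% of their CD45[Siglech] cells. At least 1 Trav UMI was found in 31.2%, 26.7% and 39.5% of CD8 cells, against 1.59%, 3.26% and 1.91% of CD45[Siglech] cells. Every mouse had more V-positive CD8 cells than V-positive background cells, and the 2 ranges did not overlap for either chain. Median depth was 11176 UMIs per CD8 cell and 13486 UMIs per CD45[Siglech] cell. After each cell was thinned to 7537 UMIs, which left out 350 CD8 cells and 16 CD45[Siglech] cells as too shallow, the Trbv share was 22.2 ± 6.08% in CD8 cells and 0.709 ± 0.338% in CD45[Siglech] cells (SD, n = 3 mice). The thinned Trav share was 20.9 ± 9.56% in CD8 cells and 1.34 ± 0.882% in CD45[Siglech] cells. Summed over rows, Trbv levels were 35.2 ± 13.5 CPM in CD8 cells and 0.582 ± 0.231 CPM in CD45[Siglech] cells, and Trav levels were 37.1 ± 25.6 CPM in CD8 cells and 1.62 ± 0.532 CPM in CD45[Siglech] cells.

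**Figure D1:**
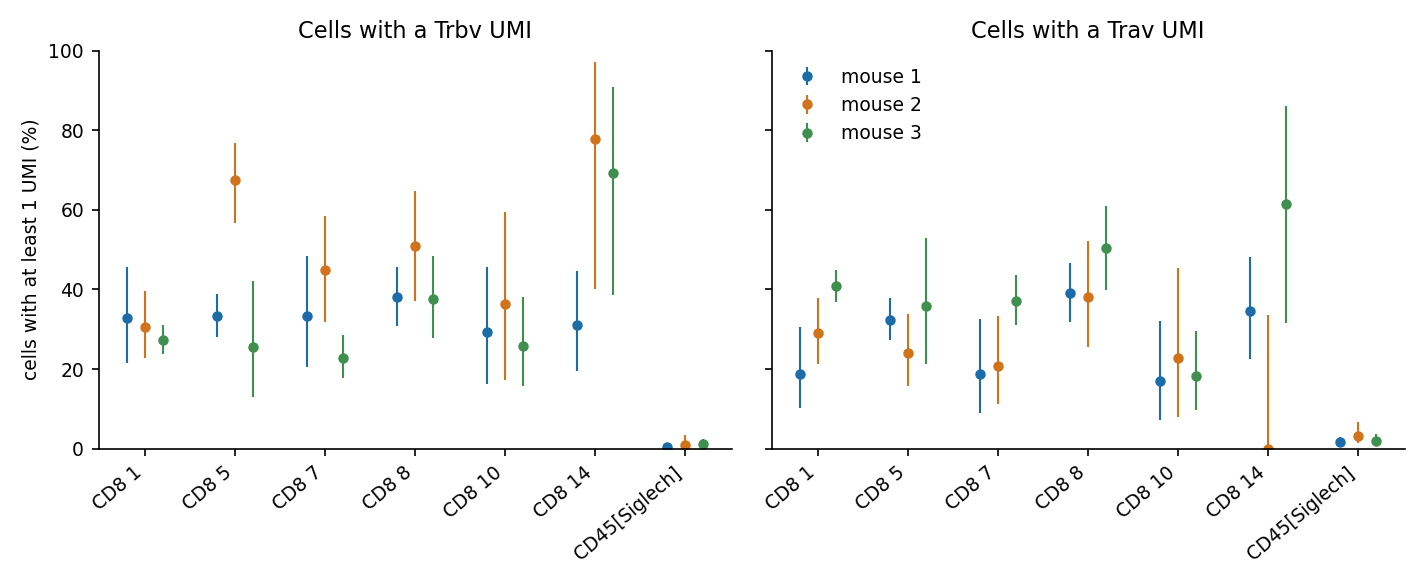
Share of cells with at least 1 Trbv UMI (left) or Trav UMI (right), in percent, for each CD8 subcluster and for CD45[Siglech] cells, 1 point per mouse with its exact 95% interval. The CD8 points lie above the CD45[Siglech] points, which reach 1.06% for Trbv and 3.26% for Trav, except that none of the 9 cells of subcluster 14 in mouse 2 had a Trav UMI.

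The constant segments, which lie downstream in the same transcripts, were read far more often than the V segments. Trbc UMIs were found in 99.95% of CD8 cells at 43.8 per cell, and Trac UMIs in 98.5% at 12.5 per cell. There were 1.12 Trbv UMIs per 100 Trbc UMIs and 4.74 Trav UMIs per 100 Trac UMIs. A cell without a V UMI is therefore a cell in which no V segment was read, and shares of V rows below are shares of cells with a call. Why the V end was read so seldom under the stated chemistry was not tested. Whether the cells with a call are a fair sample of the CD8 cells was not tested either. In CD45[Siglech] cells, Trbc UMIs were found in 32.6% of cells at 0.572 per cell.

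The 18 Trbv rows held 1041 UMIs in the CD8 cells and 10 in CD45[Siglech] cells, and the 38 Trav rows held 1259 in CD8 cells and 27 in CD45[Siglech] cells. All 56 rows had at least 1 UMI in a CD8 cell. Trav13n-4 was the row at background: it had 3 UMIs in CD8 cells and 7 in CD45[Siglech] cells. Trav6-7-dv9 had 6 UMIs, Trbv20 4 and Trav13-1 4 in CD45[Siglech] cells. Trav10n had no UMI in the 1315 background cells, which allows a share of up to 0.228%.

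Cells were given a V call when the leading row of a chain had at least 2 UMIs and at least 2 times as many as the next row. A looser call, with at least 1 UMI, was made beside it, since few cells passed the first. With at least 2 UMIs, 177 CD8 cells had a Trbv call and 212 a Trav call; with at least 1 UMI, 658 cells had a call for each chain. Of the rows, 17 Trbv and 30 Trav were called in some cell at 2 UMIs, and 18 and 38 at 1 UMI. In all 3 mice, 15 Trbv and 17 Trav rows were called at 1 UMI. The UMIs of a cell tended to name the same row. Among cells with at least 2 Trbv UMIs, a pair of UMIs from the same cell named the same row in 74.4%, 80.3% and 69.1% of pairs in mice 1, 2 and 3, against 9.44%, 12.8% and 16.8% for UMIs from different cells of that mouse. For Trav the shares were 62.1%, 76.7% and 64.1% within a cell, against 8.35%, 7.18% and 20.2% between cells. Of 218 cells with at least 2 Trbv UMIs, 65 held 2 or more rows (29.8%), and of 286 such cells for Trav, 126 did (44.1%). A T cell can carry 2 rearranged alpha chains; free RNA, doublets and shared reads between copies were not tested.

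Each mouse had its own leading Trbv segment. In mouse 2, Trbv2 was called in 37 of 62 cells (59.7%, exact 95% Clopper-Pearson interval 46.4% to 71.9%), and the next rows, Trbv17 and Trbv19, in 4 cells each (6.45%). In mouse 1, Trbv3 was called in 16 of 66 cells (24.2%), Trbv2 in 14 (21.2%) and Trbv20 in 8 (12.1%). In mouse 3, Trbv17 was called in 11 of 49 cells (22.4%), Trbv19 in 10 (20.4%) and Trbv16 in 9 (18.4%). Mouse 2 stood apart by 1 segment, and in the other mice the 2 leading rows were within each other's intervals. These intervals cover counting error only.

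With calls at 1 UMI the leader of mice 1 and 2 was the same row and that of mouse 3 was another. Trbv3 led mouse 1 with 37 of 224 cells (16.5%), ahead of Trbv13-1 with 32 (14.3%) and Trbv2 with 30 (13.4%). Trbv2 led mouse 2 with 50 of 160 cells (31.3%), ahead of Trbv29 with 13 (8.13%) and of Trbv12-2 and Trbv13-2 with 12 each (7.50%). In mouse 3, Trbv19 was called in 94 of 274 cells (34.3%), Trbv16 and Trbv29 in 35 each (12.8%) and Trbv17 in 24 (8.76%). In mouse 3, Trbv19 had 115 UMIs in 105 cells and Trbv17 had 38 UMIs in 25 cells, and in mouse 2 Trbv2 had 140 UMIs in 52 cells. Trbv19 was called in 10 of 224 cells of mouse 1 (4.46%) and 10 of 160 cells of mouse 2 (6.25%).

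**Figure D2:**
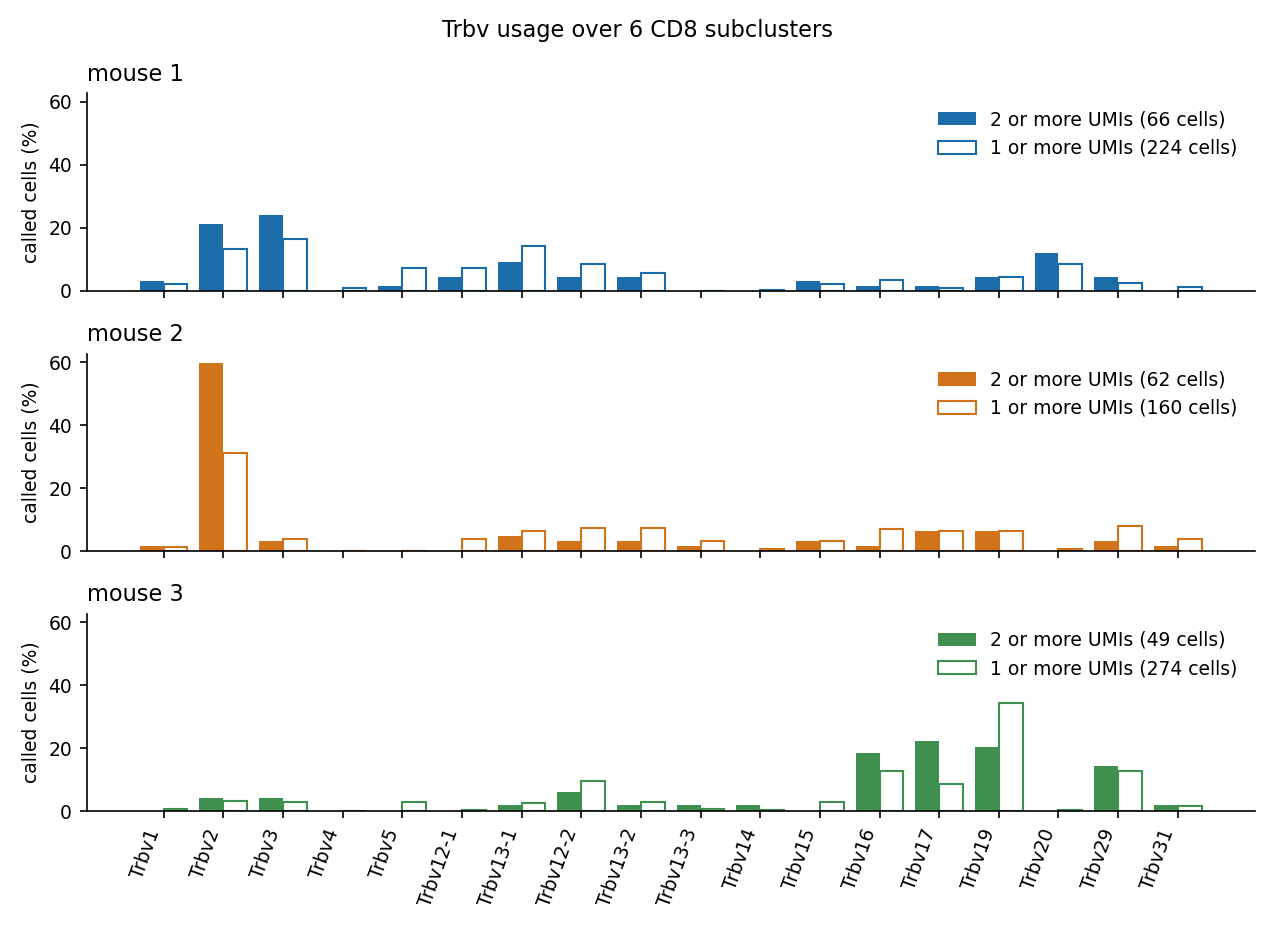
Share of called cells of the 6 CD8 subclusters, in percent, for every Trbv row in mouse 1 (top), mouse 2 (middle) and mouse 3 (bottom); filled bars are calls at 2 or more UMIs and open bars calls at 1 or more. Trbv2 reaches 59.7% of mouse 2 with calls at 2 UMIs, and Trbv19 reaches 34.3% of mouse 3 with calls at 1 UMI.

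By level, Trbv2 had 3.61, 22.6 and 1.57 CPM in the CD8 cells of mice 1, 2 and 3, against 0, 0 and 0.158 CPM in their CD45[Siglech] cells. Trbv19 had 1.35, 2.91 and 10.1 CPM in CD8 cells, against 0.111, 0 and 0 CPM in CD45[Siglech] cells. Trbv3 had 4.06, 1.61 and 0.961 CPM in CD8 cells, against 0, 0 and 0.158 CPM in CD45[Siglech] cells. Each of these 3 rows was highest by level in the mouse that it led by calls at 1 UMI. Calls and levels count the same UMIs, so this is no separate evidence. Trbv20 had 2.06, 0.161 and 0.175 CPM in CD8 cells and 0.111, 0.311 and 0.316 CPM in CD45[Siglech] cells, so that it stood above the background in mouse 1 alone.

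Trbv2 in mouse 2 lay almost wholly in the subclusters of the authors' CD45[Pdcd1] cluster (numbers 5, 8 and 14), named for the inhibitory receptor PD-1, and not in those of their CD45[Cd3g] cluster (numbers 1, 7 and 10). With calls at 1 UMI it was called in 49 of 93 cells (52.7%) of the Pdcd1 side and 1 of 67 cells (1.49%) of the Cd3g side. By subcluster it was called in 34 of 59 cells of subcluster 5 (57.6%, 44.1% to 70.4%), 11 of 27 of subcluster 8 (40.7%) and 4 of 7 of subcluster 14 (57.1%). On the other side it was called in 1 of 24 cells of subcluster 7, none of the 8 of subcluster 10 and none of the 35 of subcluster 1, which allows a share of up to 8.57%. With calls at 2 UMIs, Trbv2 held 37 of 52 calls on the Pdcd1 side (71.2%) and 0 of 10 on the Cd3g side. In mouse 1, with calls at 1 UMI, Trbv2 held 14 of 97 calls in subcluster 5 (14.4%) and 9 of 63 in subcluster 8 (14.3%). With calls at 2 UMIs it led subcluster 5 of mouse 1 with 9 of 28 calls (32.1%) and held 14 of 59 on the Pdcd1 side (23.7%) and 0 of 7 on the Cd3g side. In mouse 3, Trbv2 held 9 of 274 calls at 1 UMI over all subclusters (3.28%). The subclusters were built from genes of the same cells, perhaps with V rows among them, so these counts carry no test.

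Trbv16, Trbv29 and Trbv17 of mouse 2 lay the other way round, with calls at 1 UMI. On the Pdcd1 side, Trbv16 was called in 1 of 93 cells (1.08%), Trbv29 in 3 (3.23%) and Trbv17 in 2 (2.15%). On the Cd3g side, Trbv16 and Trbv29 were called in 10 of 67 cells each (14.9%) and Trbv17 in 8 (11.9%). Not every other row did so: Trbv13-2 held 7.53% of calls on the Pdcd1 side and 7.46% on the Cd3g side, and Trbv13-1 held 7.53% on the Pdcd1 side and 4.48% on the Cd3g side. The shares of a side depend on each other. Trbv2 held 49 of the 93 Pdcd1-side calls and 1 of the 67 Cd3g-side calls, which lowers the shares of all other rows on the Pdcd1 side. Shares with Trbv2 left out were not computed. Depth differed between the sides: the median was 24624 UMIs per cell in subcluster 5 of mouse 2 and 8509 in subcluster 1, and at least 1 Trbv UMI was found in 62.2% of the Pdcd1-side cells of that mouse. The part of depth in the difference between sides was not tested.

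Trbv19 in mouse 3, with calls at 1 UMI, crossed the sides. It was called in 54 of 152 cells of subcluster 1 (35.5%), 18 of 53 of subcluster 7 (34.0%) and 16 of 35 of subcluster 8 (45.7%, 28.8% to 63.4%). In the smaller subclusters it was called in 2 of 16 cells of subcluster 10, 3 of 9 of subcluster 14 and 1 of 9 of subcluster 5. With calls at 2 UMIs other rows led: Trbv17 held 8 of 22 calls in subcluster 1 and Trbv19 5, Trbv16 and Trbv29 held 4 of 12 each in subcluster 7, and Trbv16 held 3 of 10 in subcluster 8 and Trbv19 2. By side, Trbv19 then held 4 of 13 calls on the Pdcd1 side (30.8%) and 6 of 36 on the Cd3g side (16.7%). Subcluster 5 of mouse 3 was led by Trbv5, with 4 of 9 calls at 1 UMI. In mouse 1, with calls at 1 UMI, Trbv13-1 led subcluster 5 with 19 of 97 calls (19.6%) and subcluster 8 with 10 of 63 (15.9%), and Trbv3 led subcluster 1 with 6 of 19 (31.6%). With calls at 2 UMIs, Trbv13-1 held 3 of 28 in subcluster 5 of mouse 1, where Trbv2 led, and 3 of 24 in subcluster 8, where Trbv3 led with 6. At 1 UMI, subcluster 10, with 12, 8 and 16 called cells, had Trbv12-2 as its most called row, alone or tied, in all 3 mice, with 4, 2 and 3 cells.

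For the alpha chain, mouse 3 stood apart. Trav10n was called in 77 of its 136 cells (56.6%, 47.9% to 65.1%) with calls at 2 UMIs, ahead of Trav3-3 with 8 (5.88%) and Trav9-4 with 7. In mouse 1, Trav14d-3-dv8 was called in 14 of 57 cells (24.6%), Trav14n-3 in 10 (17.5%) and Trav16n in 7 (12.3%). In mouse 2, with 19 called cells, Trav6-7-dv9 was called in 4 (21.1%) and Trav16n in 3 (15.8%). With calls at 1 UMI the same rows led. Trav10n held 162 of 370 calls in mouse 3 (43.8%), Trav14d-3-dv8 35 of 196 in mouse 1 (17.9%) and Trav6-7-dv9 19 of 92 in mouse 2 (20.7%). Behind them came Trav14n-3 with 31 cells (15.8%) and Trav16n with 23 (11.7%) in mouse 1, Trav16n with 10 and Trav3-3 with 8 in mouse 2, and Trav6-7-dv9 with 37 (10.0%) and Trav3-3 with 28 (7.57%) in mouse 3.

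**Figure D3:**
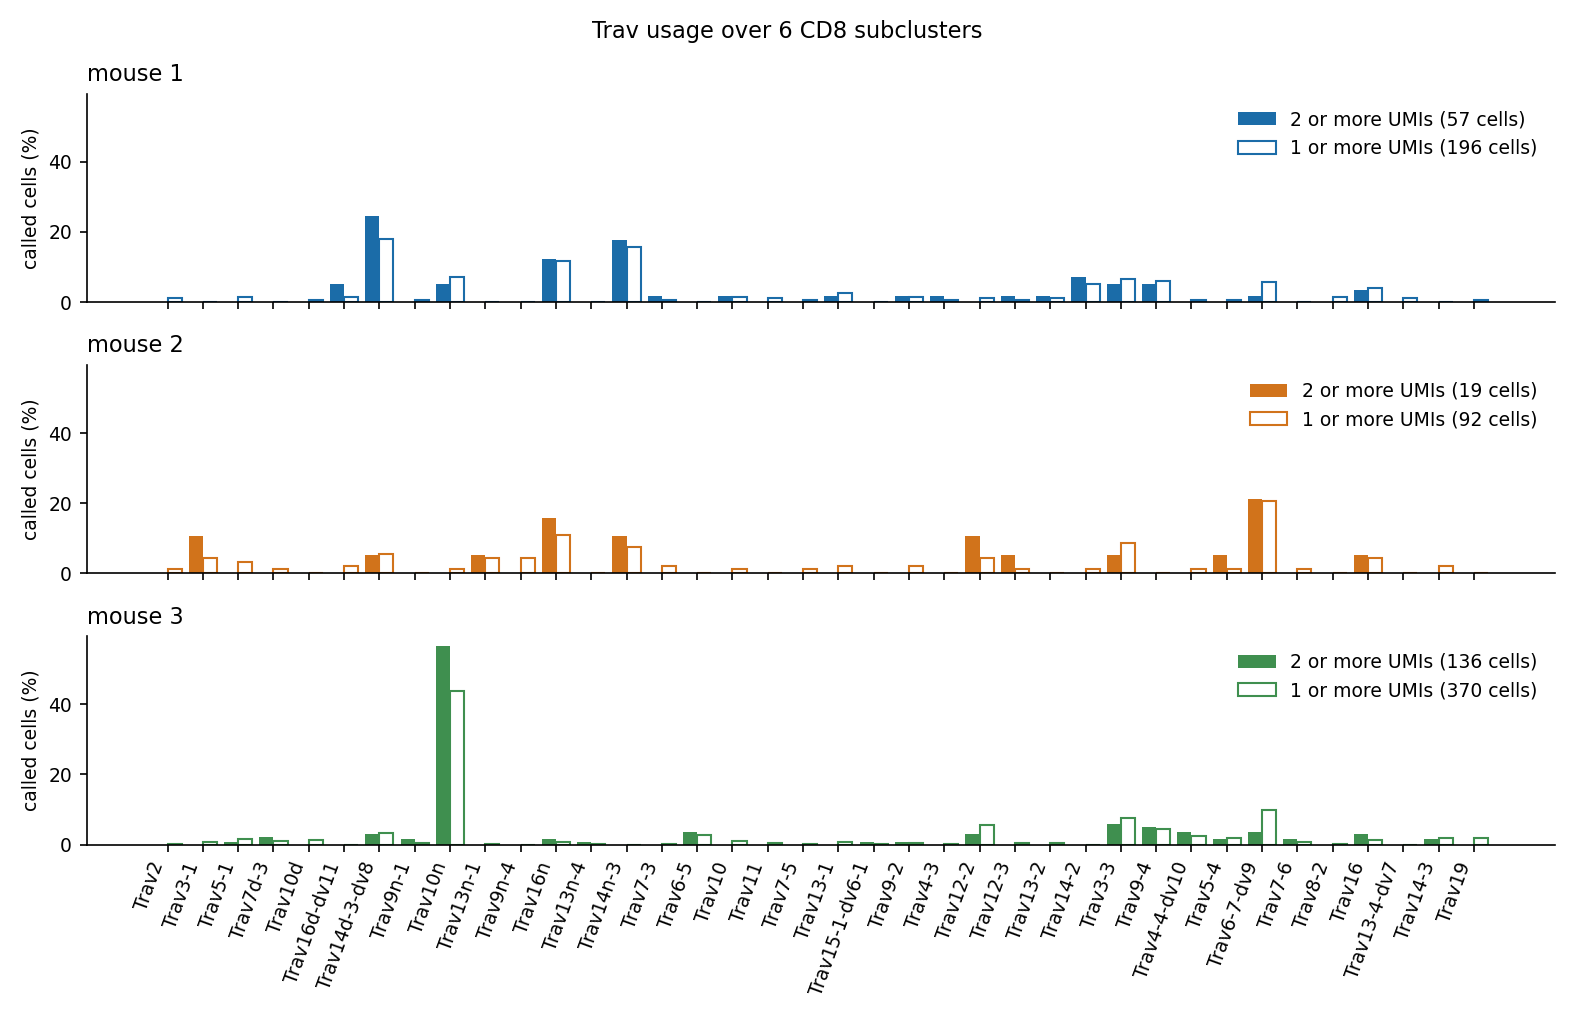
Share of called cells of the 6 CD8 subclusters, in percent, for every Trav row in mouse 1 (top), mouse 2 (middle) and mouse 3 (bottom); filled bars are calls at 2 or more UMIs and open bars calls at 1 or more. Trav10n holds 56.6% of mouse 3 with calls at 2 UMIs, and no row of mouse 1 passes 24.6%.

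By level, Trav10n had 1.35, 0.484 and 31.3 CPM in the CD8 cells of mice 1, 2 and 3, and 0 CPM in the CD45[Siglech] cells of each. Its copies Trav10d and Trav10 had 12 UMIs each in all CD8 cells, against 382 of Trav10n. Trav14n-3 had 3.41, 1.61 and 0 CPM in CD8 cells, and none of the 370 called cells of mouse 3 held it, which allows a share of up to 0.811%. Trav14d-3-dv8, a relative of Trav14n-3 in the same family, had 3.93, 1.13 and 2.80 CPM in CD8 cells. Trav6-7-dv9 had 1.16, 4.04 and 6.90 CPM in CD8 cells, against 0.223, 0.311 and 0.475 CPM in CD45[Siglech] cells. Trav11, the alpha segment of invariant natural killer T cells, had 4 UMIs in 4 of the 2118 CD8 cells, and Zbtb16, the transcription factor of those cells, had UMIs in 0.614%. Only 0.394% of the windows of Trav11 were unique, so that reads shared with its copies limit this count.

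Trav10n in mouse 3 was a segment of the Cd3g side that reached into subcluster 8. With calls at 1 UMI it held 117 of 219 calls in subcluster 1 (53.4%), 34 of 77 in subcluster 7 (44.2%) and 11 of 41 in subcluster 8 (26.8%). It held none of the 14 calls of subcluster 5, which allows up to 21.4%, none of the 12 of subcluster 10 and none of the 7 of subcluster 14. With calls at 2 UMIs it held 49 of 74 in subcluster 1 (66.2%), 20 of 33 in subcluster 7 (60.6%) and 8 of 16 in subcluster 8. Subcluster 5 of that mouse was led by Trav12-2, with 9 of 14 calls at 1 UMI (64.3%). In mouse 1, all 14 Trav10n calls (7.14% of 196) lay on the Pdcd1 side, and mouse 2 had 1 call. In mouse 1, Trav14d-3-dv8 held 9 of 19 calls in subcluster 14 (47.4%) and 18 of 90 in subcluster 5, and Trav14n-3 held 13 of 64 in subcluster 8 (20.3%). In mouse 2, Trav6-7-dv9 held 9 of 20 calls in subcluster 5 (45.0%).

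**Figure D4:**
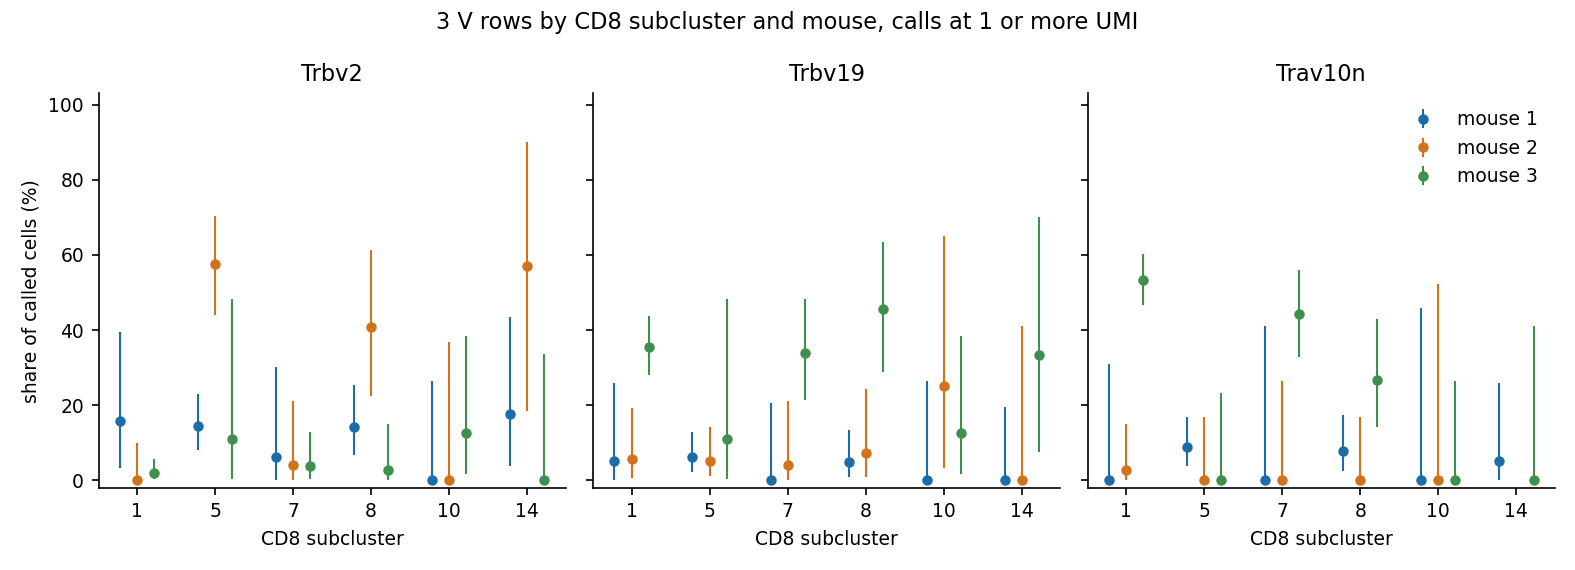
Share of called cells, in percent, holding Trbv2 (left), Trbv19 (middle) and Trav10n (right) in each CD8 subcluster, 1 point per mouse, calls at 1 or more UMI, with exact 95% intervals. Trbv2 of mouse 2 is high in subclusters 5, 8 and 14 and at 0 in 1 and 10, and Trav10n of mouse 3 is high in subclusters 1, 7 and 8 and at 0 in 5, 10 and 14.

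How concentrated and how private the usage was can be read from the chance that 2 called cells hold the same row. With Trbv calls at 2 UMIs, 2 cells of the same mouse matched with a chance of 12.6%, 36.3% and 13.8% in mice 1, 2 and 3 (20.9 ± 13.3%, SD, n = 3 mice). Cells of different mice matched with 14.9%, 4.61% and 6.52% for the mouse pairs 1 and 2, 1 and 3, and 2 and 3 (8.67 ± 5.47%, SD, n = 3 pairs). The ranges overlap, and the highest pair is that of mice 1 and 2, in which Trbv2 held 21.2% and 59.7% of calls. With calls at 1 UMI the match was 9.49%, 13.3% and 17.0% within mice (13.2 ± 3.74%) and 8.04%, 5.04% and 7.04% between mice (6.71 ± 1.53%), and the ranges did not overlap. For Trav at 2 UMIs it was 11.0%, 7.02% and 33.0% within mice (17.0 ± 14%) and 6.0%, 4.64% and 2.01% between mice (4.22 ± 2.03%). For Trav at 1 UMI it was 8.93%, 7.48% and 21.5% within mice (12.6 ± 7.72%) and 5.77%, 5.38% and 4.04% between mice (5.06 ± 0.911%). The pairs of mice share animals and are not independent, so no test was made.

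**Figure D5:**
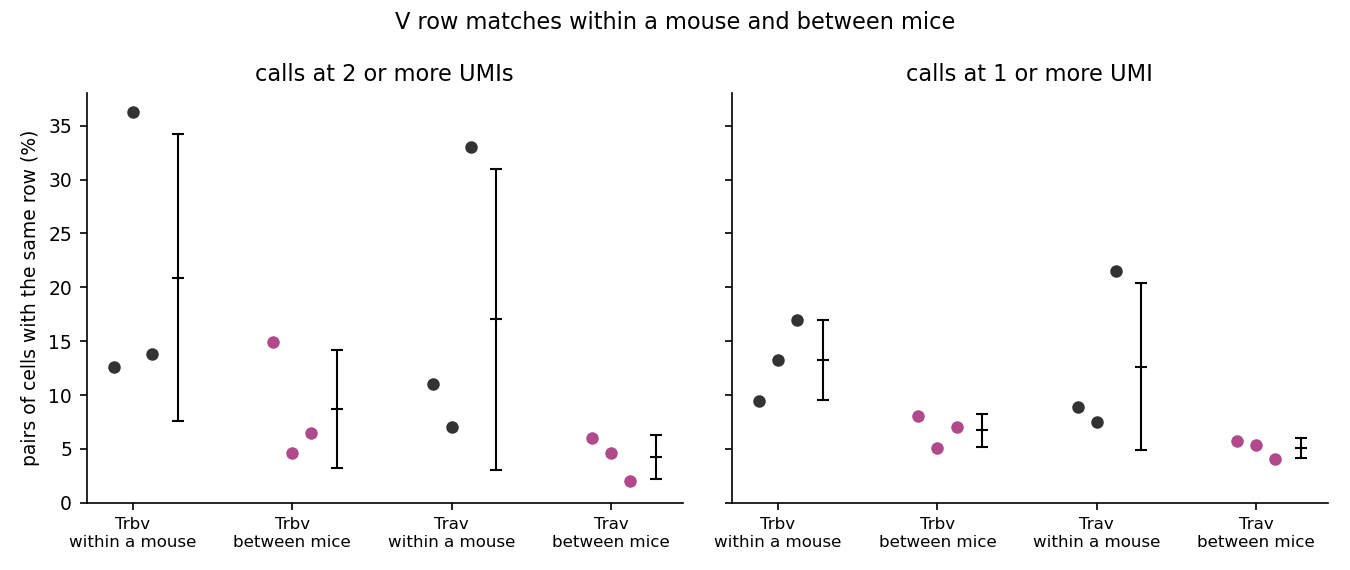
Chance, in percent, that 2 called CD8 cells hold the same Trbv or Trav row, for cells of the same mouse and of different mice, with calls at 2 or more UMIs (left) and at 1 or more (right); points are mice or pairs of mice, and lines beside them the mean and SD. With Trav calls at 1 UMI the 3 mice lie between 7.48% and 21.5%, above the pairs of mice at 4.04% to 5.77%.

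Within a mouse, the 2 sides shared their segments to different degrees. With Trbv calls at 1 UMI, 2 cells of the Pdcd1 side matched with 10.3%, 29.4% and 17.6% in mice 1, 2 and 3, and 2 cells of the Cd3g side with 9.99%, 8.19% and 17.1%. A cell of one side matched a cell of the other with 7.95%, 4.03% and 16.5%. For this chain and call, the match across sides was in each mouse below that inside either side. The gap was widest in mouse 2, and in mouse 3 the 3 values were close. With Trbv calls at 2 UMIs this order failed in mouse 1, with 9.44% across and 4.76% within the Cd3g side (7 calls). It also failed in mouse 3, with 12.0% across and 11.5% within the Pdcd1 side (13 calls). For Trav at 1 UMI the match was 9.98%, 12.3% and 11.4% within the Pdcd1 side, 4.35%, 6.41% and 26.0% within the Cd3g side, and 5.28%, 6.35% and 11.4% across. There too, the match across was not the lowest in mouse 1 or mouse 3. For Trbv at 1 UMI, subclusters 5 and 8, both on the Pdcd1 side, matched each other with 15.0 ± 8.86%, subclusters 8 and 1 with 11.6 ± 7.88%, and subclusters 5 and 1 with 6.0 ± 3.57% (SD, n = 3 mice). In mouse 3 subcluster 8 matched subcluster 1 with 20.5% and subcluster 7 with 20.3%, across the sides, and subcluster 5, with 9 called cells, with 9.21%.

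Cells with a call for both chains show which segments occur together. With calls at 2 UMIs, 5, 7 and 7 cells of mice 1, 2 and 3 had both, and no pair reached 5 cells in a mouse. With calls at 1 UMI, 64, 44 and 95 cells had both, in 33, 32 and 38 different pairs. In mouse 3, Trav10n with Trbv19 was held by 24 of 95 cells (25.3%), of which 19 were in subcluster 1, 1 in subcluster 7 and 4 in subcluster 8. In mouse 1, Trav14n-3 with Trbv3 was held by 12 of 64 cells (18.8%), of which 6 were in subcluster 5, 5 in subcluster 8 and 1 in subcluster 1. In mouse 2, Trav6-7-dv9 with Trbv2 was held by 8 of 44 cells (18.2%), all in subcluster 5. None of these 3 pairs was held by a cell of the other mice.

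The pairs next in number were Trav9-4 with Trbv13-1 (7 cells, 10.9%) and Trav14-2 with Trbv12-1 (6 cells, 9.38%) in mouse 1, and Trav6-7-dv9 with Trbv19 (11 cells, 11.6%) and Trav3-3 with Trbv29 (5 cells, 5.26%) in mouse 3. Trav12-2 with Trbv5, the rows that led subcluster 5 of mouse 3, was held by 4 cells of that mouse, 2 of them in subcluster 8, 1 in subcluster 5 and 1 in subcluster 14. The 2 pairs of mouse 1 had no cell in another mouse, and those with Trbv19 and Trbv29 had 2 and 3 cells in other mice. In mouse 2 no second pair was in more than 2 cells. A pair was found in a single cell 24, 26 and 22 times in the 3 mice. The chance that 2 paired cells of a mouse held the same pair was 5.65%, 3.49% and 8.29%.

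Some segments had 1 main partner. In mouse 3, Trbv19 was the beta segment of 24 of 29 cells with Trav10n (82.8%, 64.2% to 94.2%) and of 20 of 66 cells with another Trav row (30.3%, 19.6% to 42.9%). In the reverse view, cells with Trbv19 were less uniform: 24 of 44 held Trav10n (54.5%) and 11 held Trav6-7-dv9. Trav14d-3-dv8, the leading Trav row of mouse 1, had 2 paired cells, too few to describe. In mouse 1, Trav14n-3 was the alpha segment of 12 of 14 cells with Trbv3 (85.7%) and of 5 of 50 cells with another Trbv row (10.0%), and Trav9-4 was that of 7 of 11 cells with Trbv13-1 (63.6%) and of 1 of 53 others (1.89%). In mouse 2, Trav6-7-dv9 was the alpha segment of 8 of 13 cells with Trbv2 (61.5%) and of 5 of 31 cells with another Trbv row (16.1%). For Trav10n, Trbv3 and Trbv13-1 the 2 intervals do not overlap; they count cells of 1 mouse each, which may share descent and are not independent replicates, and no test was made.

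Whether V rows differ between CD8 and CD4 T cells was tested on UMI sums per mouse. The CD8 gate (UMI of Cd8a or Cd8b1 and of a CD3 gene, none of Cd4) held 707, 366 and 1075 cells in mice 1, 2 and 3, and the CD4 gate (the reverse) held 24, 11 and 24. Trbv2 had 3.66, 22.5 and 1.82 CPM in CD8-gate cells, against 8.49, 0 and 0 CPM in CD4-gate cells, with 215 and 2 UMIs. Trbv19 had 1.18, 2.78 and 9.81 CPM in CD8-gate cells, against 8.49, 0 and 12.2 CPM in CD4-gate cells, with 148 and 4 UMIs. Trbv12-2 had 2.29, 3.59 and 3.91 CPM in CD8-gate cells, against 8.49, 0 and 0 CPM in CD4-gate cells, with 102 and 2 UMIs. The groups overlap for all 3 rows.

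These 3 were the V rows that passed the filter on low counts, of 56, and none was called by edgeR's quasi-likelihood test with mouse as a block and Benjamini-Hochberg adjustment over 9501 genes, where 1.14% of genes were called (108, or 105 without the genes that define the gates). The log2 fold change of CD8-gate over CD4-gate cells was 1.17 (SE 1.22, adjusted p = 0.854) for Trbv2, −0.76 (SE 1.04, adjusted p = 0.886) for Trbv19 and −0.07 (SE 1.29, adjusted p = 0.999) for Trbv12-2 by the same edgeR test. None of the 3 had an unadjusted p under 0.05, and DESeq2 called none. With no filter on low counts, 1 of the 56 rows was called. The CD4-gate levels rest on 2 to 4 UMIs per row. In these small sums a few UMIs give 8.49 or 12.2 CPM, which counted toward passing the filter. The filter thus favoured rows with CD4-gate UMIs, and most V rows were not tested. The test cannot decide whether V rows differ between the gates.

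The comparison of other genes between cells with a repeated pair (held by at least 5 cells of the mouse) and cells with a rare pair (1 or 2 cells) could not be run as designed, with calls at 2 UMIs in subclusters 5, 8 and 14, because no cell held a repeated pair. A version chosen after seeing the data used calls at 1 UMI in all 6 subclusters, with equal numbers of both classes drawn from each subcluster, which left 24 against 24 cells in mouse 1 and 29 against 29 in mouse 3; mouse 2 had too few cells. By edgeR's quasi-likelihood test 7 of 5407 genes were called (0.129%), 5 of them higher and 2 lower in repeated-pair cells. Ccl5, a chemokine of effector T cells, had 6970 and 17385 CPM in repeated-pair cells of mice 1 and 3, against 2749 and 11251 CPM in rare-pair cells (log2 fold change 1.00, SE 0.14, adjusted p = 0.00764, edgeR). Gzmb, a killer granule protease, had 1295 and 771 CPM in repeated-pair cells, against 703 and 378 CPM in rare-pair cells (log2 fold change 0.96, SE 0.14, adjusted p = 0.00764, edgeR). Both genes were higher in repeated-pair cells in both mice.

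Of the rest, Ccr2, a chemokine receptor, had a log2 fold change of 1.20, Ube2c, a gene of mitosis, 0.99, and AY036118 1.25. Dapl1, high in memory-like CD8 cells, had 3.37 and 0 CPM in repeated-pair cells, against 122 and 29.1 CPM in rare-pair cells. Tnfrsf4, the costimulatory receptor OX40, had 30.3 and 0 CPM in repeated-pair cells, against 152 and 6.47 CPM in rare-pair cells. By list, 2 of 19 tested exhaustion and effector genes, 1 of 20 cell division genes and 0 of 23 receptor complex genes were higher, and 1 of 10 memory and egress genes was lower. The median log2 fold change was 0.19 over the exhaustion and effector list, −0.62 over the memory and egress list and −0.01 over all genes tested. These calls are not stable: DESeq2 called 1 gene, edgeR without the mouse block called 0, another draw of cells gave 16, and the version without balancing over subclusters, which was computed first, gave 88. With 2 mice, leaving out either leaves no test.

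Cells with the most called Trbv row of their mouse (Trbv3, Trbv2 and Trbv19) were also compared with cells holding another Trbv call, balanced over subclusters, with 37, 40 and 94 cells of each class. By edgeR's quasi-likelihood test none of 7434 genes was called, which is 0% of those tested, 349 had an unadjusted p under 0.05, and DESeq2 called none. For the most called Trav row (Trav14d-3-dv8, Trav6-7-dv9 and Trav10n; 35, 19 and 147 cells of each class) none of 7201 genes was called, 246 had an unadjusted p under 0.05, and DESeq2 called none. Without mouse 2 the Trbv comparison gave 49 genes and without mouse 3 it gave 22; the Trav comparison gave 24 without mouse 1 and 9 without mouse 3. With no gene called in either comparison, no member of the 4 gene lists could be, so the lists add no result here. The leading row of each mouse is another segment, so that these tests ask only for what the 3 have in common.

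Inside mouse 3, subcluster 8 held 23 cells with Trav10n or Trbv19 and 36 cells with another call, at median depths of 15905 and 17746.5 UMIs. Gzma, a killer granule protease, had 1775 CPM (exact 95% Poisson interval 1645 to 1912) in the Trav10n or Trbv19 cells and 114 CPM (92.4 to 140) in the others. Of the 798 Gzma UMIs in all 93 cells of this subcluster and mouse, 695 lay in the former class and 94 in the latter. Cells in neither class thus held few. How many cells carry the Gzma UMIs was not counted, so a few cells could set the level. Ccl5 had 9185 CPM in the Trav10n or Trbv19 cells and 4187 CPM in the others, and Ly6c2, a surface marker of effector and memory cells, 1647 CPM and 853 CPM. Tcf7, a transcription factor of memory-like cells, had 25.5 CPM in the Trav10n or Trbv19 cells and 65.7 CPM in the others, Igfbp7 7.66 CPM (3 UMIs, interval 1.58 to 22.4) and 82.7 CPM, and Havcr2, the inhibitory receptor TIM-3, 7.66 CPM (also 3 UMIs) and 29.2 CPM. Gzmb (1085 and 603 CPM) and Gzmk (296 and 150 CPM) were also higher in the Trav10n or Trbv19 cells. Not every marker differed. Pdcd1 was close, at 99.6 CPM and 108 CPM, as were Lag3 (94.5 and 112 CPM), Klf2 (406 and 395 CPM) and S1pr1 (28.1 and 35.3 CPM). Tox had 169 CPM in the Trav10n or Trbv19 cells and 126 CPM in the others. The intervals of Pdcd1, Lag3, Klf2, S1pr1 and Tox overlapped between the classes. In subcluster 1 of the same mouse the 152 cells with Trav10n or Trbv19 had 222 CPM of Gzma and 22197 CPM of Ccl5. These are cells of 1 mouse, the comparison was added after seeing the data, the intervals cover counting error only, and no test was made.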

How the data were processed

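A single-cell library of sorted tumour cells was processed by the authors with Cell Ranger 3.1.0 and Seurat 3.1.5 on mm10, per the submitters' processing notes; how reads matching several V segments were treated is not given in the sources used here. The values used were UMI counts per gene and cell, as deposited by the authors, with the authors' deposited table of clusters and hashtag calls; 8 of 5976 cells had no single mouse and were left out. The percent of mitochondrial UMIs per cell was deposited by the authors too and set no filter here; doublet handling is not given, and no doublet caller was run. The number of called cells sets the precision of each V share. The calls rest on 1041 Trbv and 1259 Trav UMIs among the 33168068 UMIs of the CD8 cells.

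V calls, shares and match chances were computed in Python 3.11.15 with numpy 2.4.6, scipy 1.17.1 and pandas 2.3.3, and segments were read with biopython 1.88 from the GENCODE M21 annotation of GRCm38. Intervals are exact at 95%; a count of 0 allows 3 counts. Gene tests used edgeR 4.0.16 in R 4.3.3 on UMI sums per mouse and class (TMM, filterByExpr, quasi-likelihood F test, mouse as block, threshold 0.05 on adjusted p), with DESeq2 1.42.0 beside it. The mouse numbers pair the samples because both classes come from the same animals. The scripts were tested on simulated data for the CD8 and CD4 gates. There edgeR called 89% of genes changed by 2 on the log2 scale and 25% of those changed by 1, with 3 false calls. The changes were set only in genes above the median level, with a fixed spread and no difference between mice. These shares therefore do not carry over to V rows, which have few UMIs. Median depth was 8116 to 30975 UMIs per cell across subclusters and mice.

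The text names V rows among the 3 most called of a mouse, chain or subcluster, leaving out subcluster leaders with few cells, a trim made after their values were seen; in gene tests it names up to 10 genes per direction of at least 30 CPM. The V rows, lists and tests were chosen with earlier results of these data known.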

Additional observations from a re-analysis of the deposited data

How the results depend on the processing

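The share of Trbv2 in mouse 2 was 31.25% with calls at 1 UMI, 78.6% with calls at 3 UMIs and 41.2% without the 705 CD8 cells holding at least 2 UMIs of Cd79a, Lyz2, C1qa or Siglech. The share of Trav10n in mouse 3 was 43.8% at 1 UMI and 72.4% at 3 UMIs. The Trbv match between mice was 16.6% at 3 UMIs and 4.61% to 14.9% with a mouse left out. The Trav match between mice was 1.99% at 3 UMIs, 1.78% after thinning, 8.81% with rows joined into families and 2.01% to 6.0% with a mouse left out. Within-mouse matches moved by less than the spread between mice in every setting run. The leading Trbv row of mouse 3 changed with the call: at 1 UMI, Trbv17 held 8.76% and Trbv19 34.3%.

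The cause of the differences between settings below was not tested. Of V rows between the CD8 and CD4 gates, 1 was called with no filter on low counts, and 0 in each other setting, with no replicate block included. Of genes between repeated-pair and rare-pair cells, 71 were called with no filter, 1 by DESeq2, 0 with no replicate block, 4 at a threshold of 0.01, 16 in another draw of cells and 88 with cells not balanced over subclusters. For the most called Trbv row the count was 97 with no filter, 1 in another draw, 7 without the mixed cells named above and 0 to 49 with a mouse left out. For the most called Trav row it was 29 with no filter, 1 in another draw, 1 without mixed cells and 0 to 24 with a mouse left out. Between the gates, 25 genes other than the gate genes were called with no replicate block and 105 with it; no V row was called either way, and both counts for the most called rows were 0 with no replicate block. No other setting of the repeated-pair comparison at 2 UMIs was run, since no cell formed its first class; 3 mice and few V UMIs per cell limit every value here.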
